A study of Homo sapiens with 7 samples.

Results

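Paraspeckles are RNA and protein bodies of the nucleus, and the members described here are the long noncoding RNAs NEAT1 and MALAT1 and the proteins SFPQ, NONO and PSPC1. They were chosen by gene symbol: every probe set that the array annotation gives to 1 of these 5 genes was taken, which gave 34 of 54675 probe sets, 9 for NEAT1, 12 for MALAT1, 5 for SFPQ, 3 for NONO and 5 for PSPC1. HSC-3 cells, an established line grown from a human squamous carcinoma of the mouth, were used. Cells were heated at 42 °C for 90 min and then returned to 37 °C for 0, 6 or 12 h, or heated at 44 °C for 90 min and returned to 37 °C for 0, 6 or 12 h, and unheated cells kept at 37 °C were the control. Total RNA of each of the 7 conditions was measured on 1 Affymetrix U133 Plus 2.0 array. Each difference below therefore compares a pair of arrays with no replicate check and no p-value, and the number of arrays limits the precision. All 6 comparisons with the control share the same control array.

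NEAT1 is the RNA around which a paraspeckle is built. It is made as a short and a long form from the same start, and the long form is the one that holds the body together. SFPQ, NONO and PSPC1 are related RNA-binding proteins that coat NEAT1, with SFPQ and NONO needed to keep the long form stable. MALAT1 is the neighbouring long noncoding RNA on the chromosome, and its transcripts gather in nuclear speckles, bodies rich in splicing factors that often lie next to paraspeckles. Heat and other stresses are known to change NEAT1 levels and paraspeckle size in cultured cells.

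In the RefSeq annotation of GRCh38.p14, NEAT1 is a noncoding gene on chromosome 11 from 65422798 to 65445540, and MALAT1 follows at 65497738 to 65506516, starting 52198 bases after the end of NEAT1. The microRNA gene MIR612 lies inside NEAT1, from 65444458 to 65444557, and the array annotation lists it beside NEAT1 for all 9 NEAT1 probe sets. The 3 protein genes are SFPQ on chromosome 1 (35176380 to 35193145), PSPC1 on chromosome 13 (19671205 to 19782945) and NONO on chromosome X (71283635 to 71301168). The NEAT1 probe set 220983_s_at was set aside after its values were seen, because RefSeq gives its accession to SPRY4, an inhibitor of growth factor signalling. Its intensity was between 0.817 and 39.2 on the 7 arrays. That left 8 NEAT1 probe sets and 33 in all. Which stretch of NEAT1 or MALAT1 each probe set matches was not used here, so no probe set is assigned to the short or the long form of NEAT1.

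MALAT1 is the member whose probe sets moved together most widely, at 42 °C after 6 h, so the stretches around its 2 starts in the RefSeq promoter table are shown. Each runs 5′ to 3′ on the plus strand of GRCh38.p14, from 250 bases before the start to 50 bases after it, at chr11:65497488-65497787 and chr11:65498795-65499094. Capitals mark the TATAAA motif.
MALAT1 first start: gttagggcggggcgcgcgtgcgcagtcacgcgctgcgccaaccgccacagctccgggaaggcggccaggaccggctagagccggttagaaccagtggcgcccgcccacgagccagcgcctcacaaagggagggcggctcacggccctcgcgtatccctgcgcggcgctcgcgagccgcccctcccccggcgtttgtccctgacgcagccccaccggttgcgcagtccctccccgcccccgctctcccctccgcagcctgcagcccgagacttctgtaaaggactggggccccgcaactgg
MALAT1 second start: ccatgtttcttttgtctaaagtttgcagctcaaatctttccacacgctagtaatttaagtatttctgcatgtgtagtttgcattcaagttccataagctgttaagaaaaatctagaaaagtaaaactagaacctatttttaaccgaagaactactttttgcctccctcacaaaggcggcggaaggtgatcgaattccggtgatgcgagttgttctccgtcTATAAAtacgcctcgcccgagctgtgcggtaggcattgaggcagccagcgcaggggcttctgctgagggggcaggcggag
The second window holds TATAAA 30 bases before the start, a motif that 11.5% of all 35116 promoter windows of this length hold on either strand. The first holds neither TATAAA nor CCAAT and has a GC content of 73.7%, while the second has 46.0%. The windows were also searched on both strands for the cores of the heat shock element, GAANNTTC and TTCNNGAA, each of which is its own reverse complement. Neither occurs in the MALAT1, NONO or PSPC1 windows, and 13.5% of all windows hold at least 1 of them. The NONO window holds CCAAT 3 times on either strand, a motif found in 34.6% of all windows. NEAT1 and SFPQ have no entry in this table. The motifs TATAAA and CCAAT were added after the first search, and a match describes letters only.

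The arrays stood at different levels. Median intensity was 18.7, 21.0 and 19.1 at 42 °C after 0, 6 and 12 h and 32.1, 19.3 and 19.2 at 44 °C after 0, 6 and 12 h, against 22.4 in the control. A probe set is therefore said to have risen or fallen only where it differed by at least 1 log2 unit, 2-fold, in the same direction on 3 scales, namely as deposited, quantile normalized and median shifted. Intensities under 21.35, the median of all arrays pooled and here called the floor, were raised to it. Folds that involve such a value are lower bounds. Folds and log2 differences are on the deposited scale unless said otherwise. The heat response itself was visible in the 4 chaperone genes HSPA6, DNAJB1, HSPH1 and BAG3: 4, 2 and 0 of them rose at 42 °C after 0, 6 and 12 h, and 2, 3 and 3 rose at 44 °C after 0, 6 and 12 h. Epithelial markers were bright. Of 9 listed, 6 were measured, all at least 4 times the floor on every array, with a summed intensity of 45883 to 62248. Leukocyte markers summed to 34.3 to 72.5 over 4 genes, endothelial markers to 39.0 to 83.5 over 4 and fibroblast markers to 205 to 422 over 7. Of the fibroblast markers, 1 was at least 4 times the floor on every array, and of the leukocyte and endothelial markers 0 were. In RNA from a whole culture, fewer cells that express a gene and less RNA per cell cannot be told apart.

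NEAT1 gave 2 opposite patterns on the array collected directly after 42 °C. Of its 8 probe sets, 4 rose by 3.04- to 5.40-fold and 2 fell by 3.54- and 4.36-fold relative to the control. The 4 that rose were still up after 6 h and no longer past 2-fold after 12 h. Over all 33 member probe sets, 4 rose and 3 fell at 42 °C, 0 h, where 1.76% of all 36482 probe sets tested rose and 3.01% fell.

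Probe set 234989_at, the one with the highest mean among the NEAT1 probe sets, had an intensity of 2587, 2486 and 607 at 42 °C after 0, 6 and 12 h and 2604, 1244 and 1453 at 44 °C after 0, 6 and 12 h, against 546 in the control. It was 4.74-fold higher than the control at 42 °C, 0 h and 4.55-fold higher at 42 °C, 6 h, and it rose on all 3 arrays at 44 °C, by 4.77-, 2.28- and 2.66-fold after 0, 6 and 12 h. The control was the lowest of the 7 arrays, with 42 °C, 12 h next above it at 1.11-fold.
Probe set 225239_at had 1312, 1165 and 333 at 42 °C after 0, 6 and 12 h and 930, 370 and 427 at 44 °C after 0, 6 and 12 h, against 243 in the control. It rose by 5.40-, 4.80- and 3.83-fold at 42 °C, 0 h, at 42 °C, 6 h and at 44 °C, 0 h. All 6 heated arrays lay above the control, but the other 3 did not pass the threshold on all scales.
The dimmer probe set 227062_at followed the course of 234989_at. It had 227, 241 and 35.8 at 42 °C after 0, 6 and 12 h and 174, 113 and 131 at 44 °C after 0, 6 and 12 h, against 48.7 in the control. It rose on the same 5 arrays, by 4.67- and 4.94-fold at 42 °C after 0 and 6 h and by 3.58-, 2.32- and 2.69-fold at 44 °C after 0, 6 and 12 h.
Probe set 238320_at had 242, 226 and 97.0 at 42 °C after 0, 6 and 12 h and 191, 96.0 and 84.3 at 44 °C after 0, 6 and 12 h, against 79.4 in the control. It rose by 3.04- and 2.84-fold at 42 °C after 0 and 6 h and on no array at 44 °C.

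The probe sets 224565_at and 224566_at ran the other way. For 224565_at the intensity was 272, 1067 and 2112 at 42 °C after 0, 6 and 12 h and 1313, 734 and 362 at 44 °C after 0, 6 and 12 h, against 963 in the control. It fell by 1.83 on the log2 scale at 42 °C, 0 h and by 1.41 at 44 °C, 12 h. At 42 °C, 12 h it was 1.13 log2 units above the control as deposited, but 0.95 and 0.97 on the other scales, so no rise is called. For 224566_at the intensity was 155, 596 and 1245 at 42 °C after 0, 6 and 12 h and 997, 451 and 317 at 44 °C after 0, 6 and 12 h, against 677 in the control. This probe set fell by 2.12 on the log2 scale at 42 °C, 0 h. Both were lowest directly after 42 °C and highest 12 h after it, the reverse of the order of 234989_at, 225239_at and 238320_at over the 3 times at this temperature.
The last 2 NEAT1 probe sets were dim. The first, 214657_s_at, had 39.4, 59.6 and 84.8 at 42 °C after 0, 6 and 12 h and 80.9, 24.0 and 44.4 at 44 °C after 0, 6 and 12 h, against 78.7 in the control, and it fell by 3.29-fold at 44 °C, 6 h. The other, 239269_at, had 25.8, 51.6 and 48.0 at 42 °C after 0, 6 and 12 h and 93.0, 65.9 and 19.9 at 44 °C after 0, 6 and 12 h, against 30.2 in the control, and it rose by 3.08- and 2.18-fold at 44 °C after 0 and 6 h. Only 1 of these 14 values was at least 4 times the floor.

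**Figure D1:**
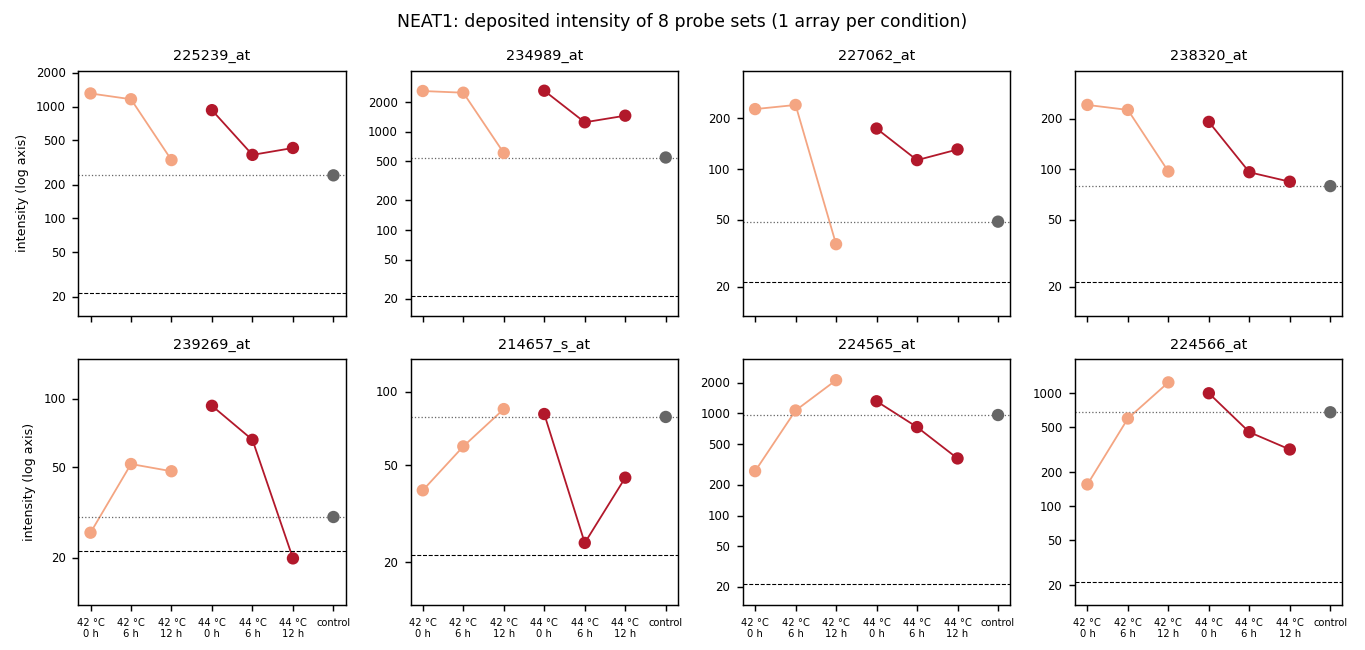
Deposited intensity of the 8 NEAT1 probe sets on a log axis, 1 point per array, with 42 °C and 44 °C left of the control; the dashed line is the floor of 21.35 and the dotted line the control level. Directly after 42 °C, 4 probe sets lie well above their control and 224565_at and 224566_at well below it, at 272 and 155 against 963 and 677.

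The size of the disagreement can be read from the differences between log2 changes. At 42 °C, 0 h the change of 234989_at exceeded that of 224565_at by 4.07 log2 units, which makes their ratio 16.8-fold different from its value in the control. That difference was 2.04 after 6 h and -0.98 after 12 h at 42 °C, and 1.81, 1.58 and 2.82 at 44 °C after 0, 6 and 12 h. For 225239_at and 224566_at the differences were 4.56, 2.45 and -0.42 at 42 °C and 1.38, 1.19 and 1.91 at 44 °C after 0, 6 and 12 h. Each pair joins a probe set that rose at 42 °C, 0 h with one that fell there, matched in order of mean intensity. A wide gap on that array was therefore set by the choice of pairs. Both pairs had their widest gap there and a gap of the opposite sign at 42 °C, 12 h. Such a ratio shows unequal change and leaves the change of either stretch of RNA unsettled.

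Few genes had probe sets so far apart. Among 511 genes with at least 4 probe sets that were bright, at least 4 times the floor on the heated or the control array, the log2 differences at 42 °C, 0 h spanned a median of 0.55 within a gene, with a 95th percentile of 1.69. The 6 bright NEAT1 probe sets spanned 4.56, the widest of the 511. Other genes were counted here by probe sets that list 1 gene alone. NEAT1 probe sets also list MIR612 and were let in as an exception, in this and the other counts of this paragraph. A span tends to grow with the number of probe sets, most of these genes had 4, and the ranks were not adjusted for it. MALAT1 spanned 2.21 over 7 bright probe sets, and 11 genes including MALAT1 were as wide or wider. SFPQ spanned 0.43 and PSPC1 0.58, near the median of genes. At 44 °C, 12 h NEAT1 spanned 2.84 and was again the widest, of 489 genes, while at 42 °C, 12 h it spanned 0.98, with 88 of 526 genes as wide or wider. MALAT1 spanned 2.30 at 42 °C, 12 h over 9 bright probe sets, with 3 of the 526 genes, itself included, as wide or wider. NEAT1 also had at least 1 probe set that rose and 1 that fell in the same comparison. Of 3894 genes with at least 2 bright probe sets, 4 did so at 42 °C, 0 h, and at 44 °C, 12 h NEAT1 was the single such gene among 3831. Some of these probe sets counted as bright only through the array where they were high, among them NEAT1 227062_at at 42 °C, 0 h and at 44 °C, 12 h. With probe sets bright on both arrays, a choice made after seeing the values, 4 NEAT1 probe sets were left. They spanned 4.56 at 42 °C, 0 h, the widest of 401 genes, and 2.82 at 44 °C, 12 h, the widest of 314 genes. MALAT1 at 42 °C, 0 h then had 2 genes including itself as wide or wider, and at 42 °C, 12 h it spanned 2.12, the widest of 436 genes. NEAT1 was the single gene of 3350 at 42 °C, 0 h and of 3106 at 44 °C, 12 h with a probe set that rose and another that fell.

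**Figure D2:**
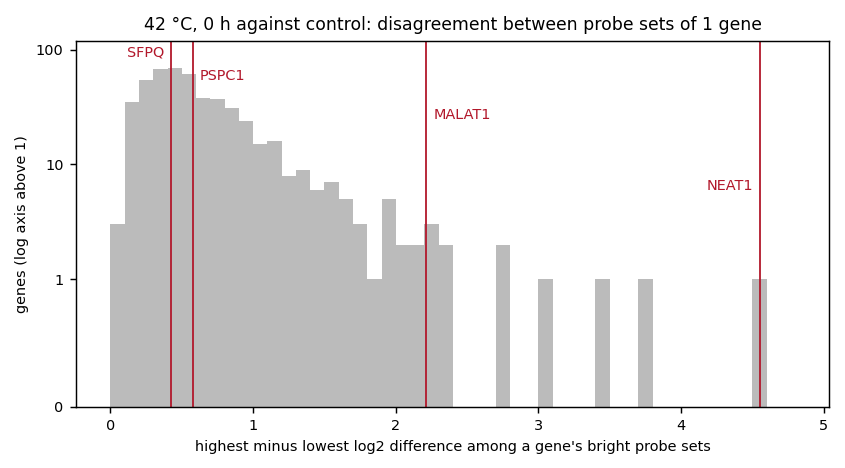
Histogram of the span of log2 differences (42 °C, 0 h minus control, deposited scale) among the bright probe sets of each of 511 genes with at least 4 of them; the vertical axis counts genes, on a log axis above 1. The marked spans are 4.56 for NEAT1, 2.21 for MALAT1, 0.58 for PSPC1 and 0.43 for SFPQ.

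MALAT1 was highest 6 h after 42 °C. All 12 of its probe sets were above the control there on all 3 scales, 8 rose, and 10 had the highest of their 7 values on that array. Together with the 4 of NEAT1 this makes 12 of 33 member probe sets that rose at 42 °C, 6 h, where 1.70% of all probe sets rose, and 0 fell, against 1.93% of all. The median difference over the MALAT1 probe sets was 1.58 log2 units as deposited and 1.37 after quantile normalization. Over all 15029 genes tested the medians were 0.12 and 0.

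The brightest MALAT1 probe set by mean, 1558678_s_at, had an intensity of 1492, 3166 and 1688 at 42 °C after 0, 6 and 12 h and 2200, 1013 and 1899 at 44 °C after 0, 6 and 12 h, against 919 in the control. It was 3.45-fold higher than the control at 42 °C, 6 h and also rose at 44 °C, 12 h, by 2.07-fold. All 6 heated arrays lay above the control.
The widest course was that of 224558_s_at, with 170, 2179 and 1022 at 42 °C after 0, 6 and 12 h and 414, 225 and 524 at 44 °C after 0, 6 and 12 h, against 441 in the control. It fell by 1.38 on the log2 scale at 42 °C, 0 h, and then stood 4.95-fold above the control after 6 h and 2.32-fold above it after 12 h. Between 0 and 6 h at 42 °C it rose 12.9-fold. Probe set 223577_x_at had 57.6, 338 and 187 at 42 °C after 0, 6 and 12 h and 95.6, 43.6 and 82.5 at 44 °C after 0, 6 and 12 h, against 73.8 in the control, and rose by 4.57-fold at 42 °C, 6 h and 2.53-fold at 42 °C, 12 h.
The other 5 that rose at 42 °C, 6 h rose on that array alone. Probe set 223940_x_at reached 733 there, against 192 in the control, and 224568_x_at reached 457, against 135 in the control. Probe set 231735_s_at had 185 there, against 69.6 in the control, and 228582_x_at had 71.4, against 27.4 in the control. The dimmest, 223578_x_at, had 72.2 there and 13.5 in the control, below the floor, which makes it at least 3.38-fold higher. These 5 span 2.60- to 3.82-fold.
The 4 MALAT1 probe sets that were not called at 42 °C, 6 h had differences of 0.75 (224559_at), 0.76 (224567_x_at), 1.01 (226675_s_at) and 1.02 (227510_x_at) log2 units, and the last 2 stayed under 1 on the other scales. Of the 12, 7 have names ending in _x_at, which on this array marks probe sets with probes that can match other sequences. Among the 5 with other endings, 3 rose at 42 °C, 6 h: 1558678_s_at, 224558_s_at and 231735_s_at. Whether the probe sets share probes was not tested.

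**Figure D3:**
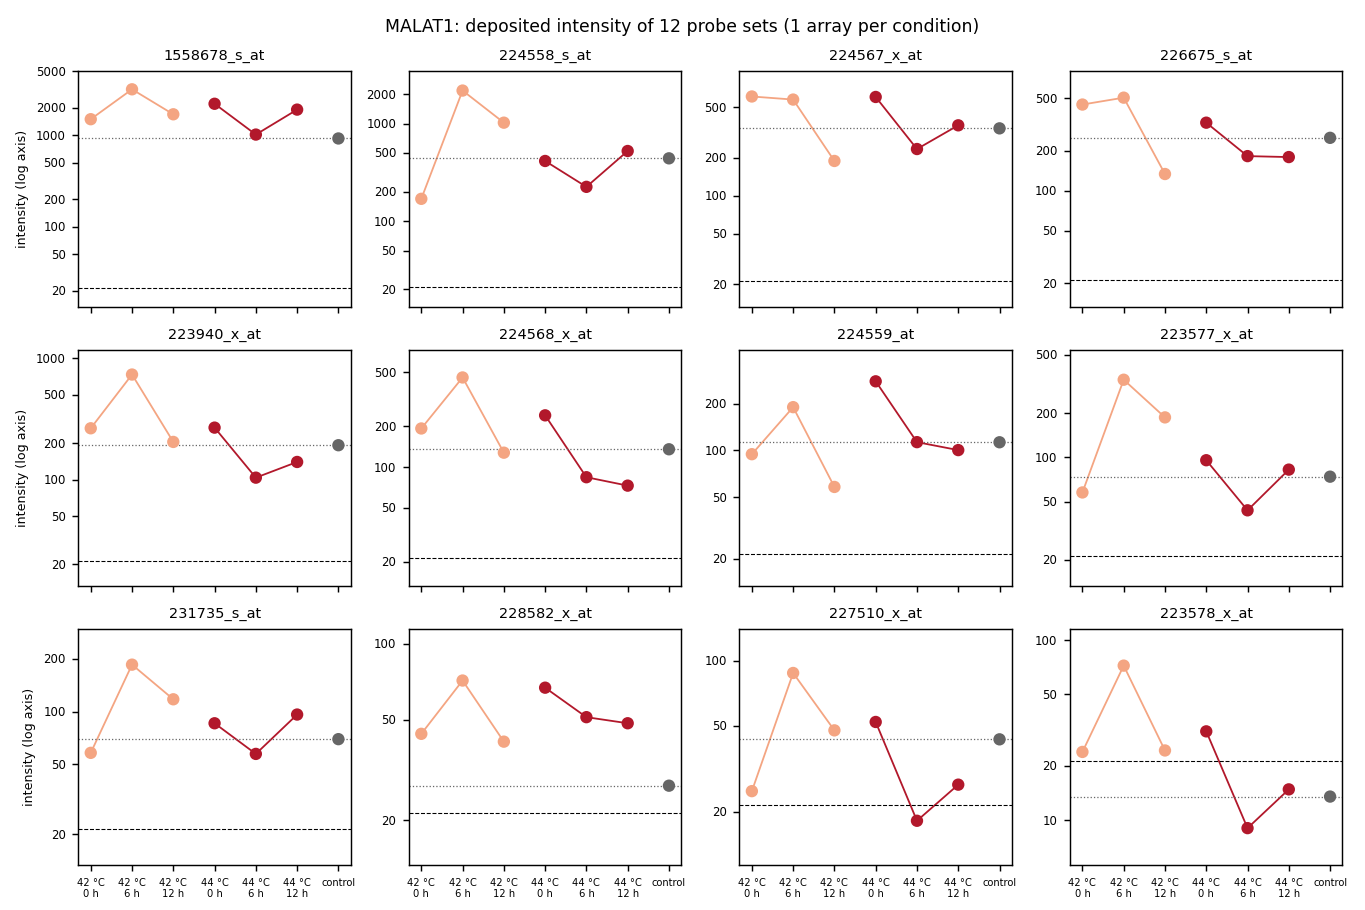
Deposited intensity of the 12 MALAT1 probe sets on a log axis, 1 point per array, with 42 °C and 44 °C left of the control; the dashed line is the floor of 21.35 and the dotted line the control level. At 42 °C, 6 h all 12 lie above the control, and for 10 of them that is the highest of the 7 arrays.

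At 44 °C MALAT1 had a single call in the 3 comparisons with the control. At 44 °C, 0 h, 4 member probe sets rose, all of NEAT1, and 0 fell, where 3.30% of all probe sets rose and 1.08% fell. The corresponding counts at 44 °C, 6 h were 3 and 1, all of NEAT1, with 1.69% and 3.27% of all probe sets. At 44 °C, 12 h 3 rose, 2 of NEAT1 and 1 of MALAT1, and 1 of NEAT1 fell, with 1.61% and 4.39% of all probe sets. At 42 °C, 12 h the 2 that rose were the MALAT1 probe sets 224558_s_at and 223577_x_at, and 0 fell, where 0.932% and 1.70% of all probe sets did so.

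A direct comparison of temperatures at each time had no control array in it. At 0 h, 4 member probe sets were higher at 44 °C than at 42 °C on all scales and 0 lower, against 3.55% and 0.746% of all probe sets. They were NEAT1 224565_at (1313 at 44 °C, against 272 at 42 °C), NEAT1 224566_at (997 at 44 °C, against 155 at 42 °C), NEAT1 239269_at (93.0 at 44 °C, against 25.8 at 42 °C) and MALAT1 224559_at (280 at 44 °C, against 94.6 at 42 °C). The 2 bright NEAT1 probe sets among them are those that fell directly after 42 °C.
At 6 h, 10 were lower at 44 °C and 0 higher, against 4.79% and 1.73% of all probe sets. These were 9 of the 12 MALAT1 probe sets and NEAT1 225239_at, which had 370 at 44 °C, against 1165 at 42 °C. The MALAT1 probe set 224558_s_at differed most, with 225 at 44 °C, against 2179 at 42 °C, 9.69-fold lower. At 12 h, NEAT1 split by probe set once more. Probe sets 227062_at and 234989_at were 3.66- and 2.39-fold higher at 44 °C, whereas 224565_at and 224566_at were 5.84- and 3.93-fold lower, against 1.83% of all probe sets higher and 3.63% lower.

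The recovery steps within each temperature compared the same heated arrays with each other. From 0 to 6 h after 42 °C, 8 member probe sets rose, 6 of MALAT1 and the NEAT1 probe sets 224565_at and 224566_at, and 0 fell, where 3.63% of all probe sets rose and 1.17% fell. From 6 to 12 h after 42 °C, 11 fell and 1 rose, where 1.20% and 0.803% of all probe sets did so. The 11 were 7 MALAT1 probe sets and the 4 NEAT1 probe sets 225239_at, 227062_at, 234989_at and 238320_at, which fell by 3.50-, 6.73-, 4.10- and 2.33-fold, and the 1 that rose was NEAT1 224566_at. Steps at 44 °C gave few calls, too few to set the members apart. Calls aside, all 33 member probe sets were lower at 44 °C, 6 h than at 44 °C, 0 h as deposited. After quantile normalization 24 were lower and 8 higher, and after the median shift 25 were lower and 8 higher. From 0 to 6 h, NEAT1 214657_s_at alone fell and 0 rose, with 2.20% and 0.304% of all probe sets, and from 6 to 12 h MALAT1 224558_s_at rose and NEAT1 239269_at fell, with 0.869% and 1.12% of all probe sets.

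**Figure D4:**
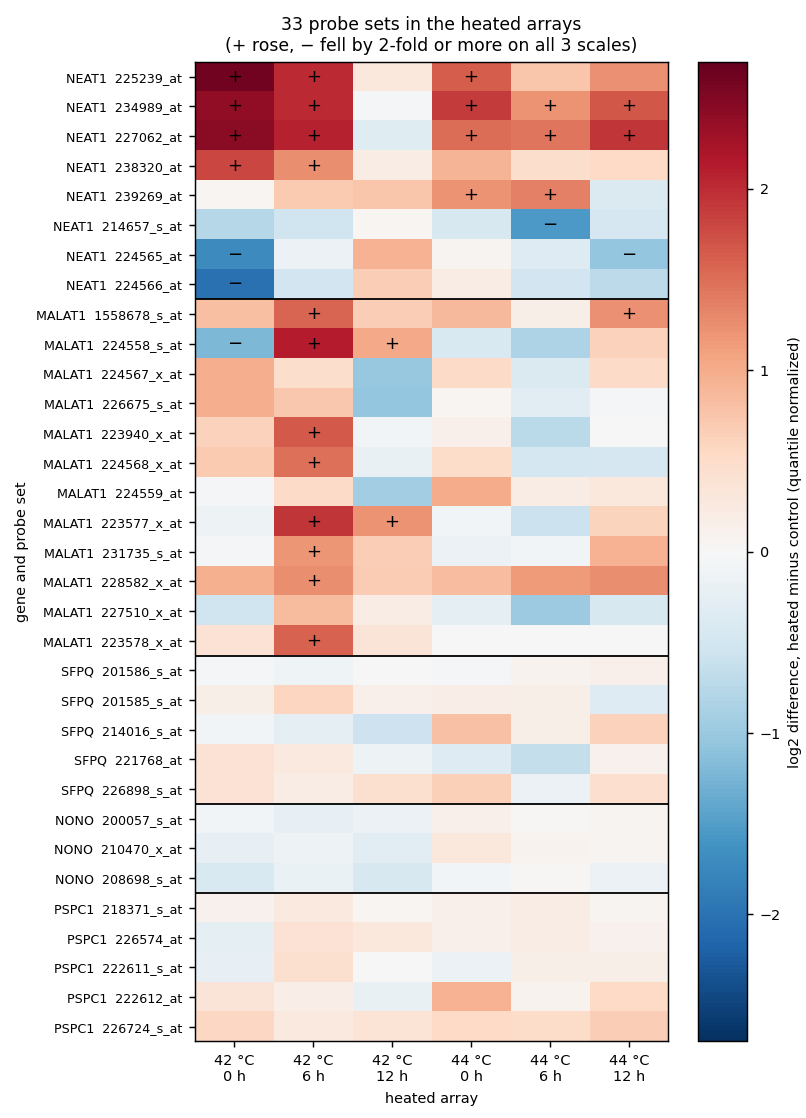
Heat map of the log2 difference from the control, after quantile normalization, for the 33 member probe sets (rows) on the 6 heated arrays (columns); a plus or minus marks a rise or fall of at least 1 log2 unit on all 3 scales. The marks number 12 at 42 °C, 6 h and lie in NEAT1 and MALAT1 rows throughout.

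The proteins that coat NEAT1 did not change at the RNA level past the threshold. None of the 13 probe sets of SFPQ, NONO and PSPC1 rose or fell in any of the 6 comparisons with the control. In these comparisons 0.932% to 3.30% of all probe sets rose and 1.08% to 4.39% fell. With so few called, 0 of 13 in a comparison does not set these genes apart. SFPQ, an RNA-binding protein of splicing and transcription, had 4038, 4636 and 4883 for its brightest probe set 201586_s_at at 42 °C after 0, 6 and 12 h and 5788, 5158 and 4724 at 44 °C after 0, 6 and 12 h, against 4219 in the control. The second, 201585_s_at, had 1220, 2059 and 1487 at 42 °C and 1722, 1306 and 733 at 44 °C after 0, 6 and 12 h, against 1159 in the control. These courses differ from each other at 44 °C, 12 h, where the second was the lowest of its 7 values and the first was not.
NONO, the partner with which SFPQ and PSPC1 form dimers, had 5982, 6408 and 6370 for 200057_s_at at 42 °C after 0, 6 and 12 h and 9524, 7597 and 7070 at 44 °C after 0, 6 and 12 h, against 6353 in the control. Its 3 probe sets were all highest at 44 °C, 0 h and all lowest at 42 °C, 0 h, with differences from the control of 0.40 to 0.77 and of -0.43 to -0.09 log2 units as deposited. The 44 °C, 0 h array also had the highest median of all arrays, and after quantile normalization the NONO differences there were -0.07 to 0.29.
PSPC1, the member of the group first used to mark paraspeckles, had 317, 480 and 385 for 218371_s_at at 42 °C after 0, 6 and 12 h and 443, 336 and 249 at 44 °C after 0, 6 and 12 h, against 324 in the control. Probe set 226574_at had 228, 489 and 428 at 42 °C after 0, 6 and 12 h and 418, 321 and 242 at 44 °C after 0, 6 and 12 h, against 306 in the control. All 5 PSPC1 probe sets were above the control at 42 °C, 6 h as deposited, by 0.23 to 0.72 log2 units, and 222612_at was 1.26 above it at 44 °C, 0 h but 0.93 after quantile normalization.

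**Figure D5:**
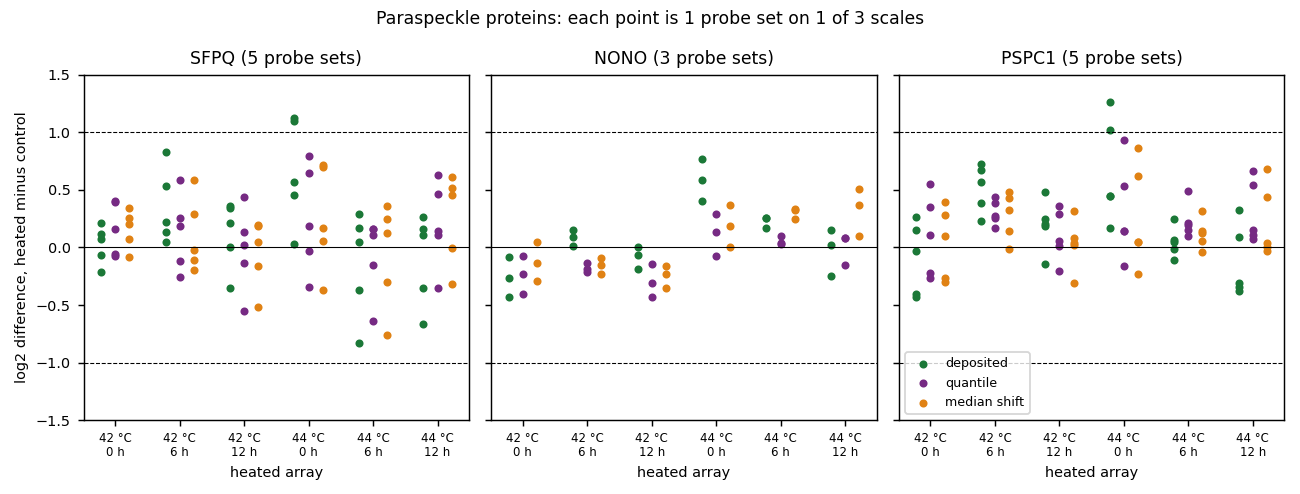
Log2 difference from the control for the SFPQ, NONO and PSPC1 probe sets on the 6 heated arrays, 1 point per probe set on each of the 3 scales (deposited, quantile normalized, median shifted); dashed lines mark 1 log2 unit either way. A few deposited values at 44 °C, 0 h pass 1, up to 1.26 for PSPC1, and none of the 13 probe sets does so on all 3 scales.

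Among other known paraspeckle proteins RBM7 and RBM14 were called, which at the shares below does not set the list apart. Of 26 listed, 24 were tested, each gene by its probe set of highest mean. Over all gene lists without the chaperones, this gave 7 rises and 8 falls in the 6 comparisons with the control. The mean of all probe sets of a gene gave 1 rise and 5 falls. Most rises of list genes named below were therefore not called on that mean. On the gene level, background shares are of all 15029 genes tested. Over the 6 comparisons with the control, 0.991% to 2.18% of these genes rose and 0.725% to 3.64% fell. RBM7, a subunit of a nuclear RNA decay complex, rose at 42 °C, 6 h to 2138, against 900 in the control, where 1.52% of all genes rose. The RBM7 difference was 1.25 log2 units as deposited and 1.01 on each of the other scales, just past the threshold. RBM14, which is needed for paraspeckles to form, fell at 42 °C, 12 h to 328, against 669 in the control, where 0.991% of all genes rose and 1.45% fell. No other of the 24 was called in these 6 comparisons, and the list median after quantile normalization was between -0.04 and 0.13 log2 units, beside 0 for all genes.
Of 17 genes of RNA 3′ end processing and decay, among them the subunits of the cleavage factor that helps to set which NEAT1 form is made, 16 were tested. CSTF1, a cleavage stimulation factor subunit, fell at 42 °C, 0 h to 130, against 342 in the control, where 3.21% of all genes fell. NUDT21, a subunit of that cleavage factor, was between 1501 and 2417 on the heated arrays, against 1768 in the control, and was not called.

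Nuclear speckle proteins, the surroundings of MALAT1, gave 3 calls over 22 tested of 23. CLK1, a kinase of splicing factors, rose at 42 °C, 0 h to 682, against 257 in the control, where 1.48% of all genes rose. BUD13, a splicing factor, fell on the same array to 47.6, against 188 in the control. SRRM2, a scaffold of speckles, rose at 44 °C, 0 h to 457, against 166 in the control, where 2.18% of all genes rose. Of the 10 proteins of nuclear stress bodies and heat shock factors, 6 were tested and none was called. Over the 6 comparisons 0.991% to 2.18% of all genes rose and 0.725% to 3.64% fell, so no call among 6 genes is usual.
Among 30 other long noncoding RNAs, 18 were tested. NORAD, a cytoplasmic RNA that binds PUMILIO proteins, fell at 44 °C after 6 and 12 h, to 1984 and 1542, against 4479 in the control. OIP5-AS1 fell on the same arrays, to 319 and 264, against 770 in the control, where 2.75% and 3.64% of all genes fell and 1.54% and 1.74% rose. KCNQ1OT1, an imprinted antisense RNA, rose at 44 °C by at least 3.09- and 2.13-fold after 0 and 6 h, and TTN-AS1 fell at 44 °C, 12 h by at least 2.57-fold. Both are dim and were added to the genes named once their values were known. None of the 18 was called at 42 °C, where 0.991% to 1.52% of all genes rose and 1.45% to 3.21% fell.
Of 7 genes reported to be held back or released by paraspeckles, 5 were tested. SLC7A2, an amino acid transporter gene whose mouse RNA is the known example of paraspeckle retention, had 55.0 and 64.0 directly after 42 °C and 44 °C, against 18.5 in the control, and rose on both arrays, by at least 2.58-fold at 42 °C. It too is dim and was added in the same way. CXCL8, a chemokine gene linked to paraspeckles, had 2172, 3113 and 5193 at 42 °C after 0, 6 and 12 h and 4752, 3149 and 1951 at 44 °C after 0, 6 and 12 h, against 4439 in the control, with no call.

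The genes most alike in course were sought among 7453 genes at least 4 times the floor on all arrays, by the mean absolute distance between the 6 log2 differences from the control after quantile normalization. Nearest to NEAT1 234989_at were ANKRD10 (0.36), BAG3 (0.43), SLC5A3 (0.57), MSX1 (0.58) and RSRP1 (0.58), where the median gene was 1.54 away. BAG3 is a cochaperone of HSP70 and SLC5A3 an inositol transporter. Nearest to MALAT1 1558678_s_at were AVPI1 (0.26), CLN3 (0.28), HMBOX1 (0.29), RPL7AP9 (0.29) and SNX11 (0.31), with a median of 0.88. For NEAT1 224565_at, a search added after its values were seen, the nearest were IL1B (0.31), PLAU (0.32), ADPRS (0.34), IFRD1 (0.36) and MARCHF7 (0.37), with a median of 0.79. No gene is in more than 1 of these 3 groups of 5. With 5 of 7453 genes in each group, this alone does not set the courses apart.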

How the data were processed

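The values used were probe set intensities deposited by the authors, on a linear scale, from 7 arrays, with 0 columns from other samples. The labels state that 5 µg of each total RNA was turned into biotin-labelled cRNA. The summary algorithm and normalization are not given in the sources used here. Samples were grouped by temperature and recovery time. Probe sets were named with the platform annotation, updated with RefSeq (GRCh38.p14). Of 54675 probe sets, 41097 listed 1 gene, 1801 several and 11777 were not listed. A gene was represented by its single-gene probe set of highest mean, except that all probe sets of the members were used.

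From these intensities, log2 differences were computed on 3 scales: deposited, quantile normalized, and shifted by the median over 20902 probe sets that reach the floor of 21.35 on every array. The floor was applied after scaling. A call needed 1 log2 unit on all 3. With 1 array per condition no test was made. The code for calls was run on simulated data with large shifts placed in bright probe sets and little noise. That run checks the code and not how often calls on these arrays err. Python 3.11.15, numpy 2.4.6, pandas 2.3.3 and matplotlib 3.10.9 were used.

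Besides the members, the genes named were up to 4 called genes per list and comparison with a higher value at least 4 times the floor, the 4 chaperone genes, and the 5 genes most alike the NEAT1 and MALAT1 probe sets of highest mean by the same distance. Others, such as CXCL8 and NUDT21, were picked once their values were known. The members and the lists were chosen with earlier results of these data known. Alternatives changed the scale, the floor, the use of _x_at probe sets and the gene summary.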

Additional observations from a re-analysis of the deposited data

How the results depend on the processing

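With 1 array per condition, counts near the threshold depended on the scale and the floor. A call needs the same sign on all 3 scales, and directions of single list genes under the other alternatives were not tabulated. Counts of member probe sets within 1.5 times the reported ones are not listed.
On the deposited scale alone, 12 member probe sets rose at 44 °C, 0 h, 2 fell at 44 °C, 6 h and 2 at 44 °C, 12 h. For 44 °C against 42 °C it gave 10 higher at 0 h and 5 lower at 12 h. For recovery steps it gave 14 rises from 0 to 6 h at 42 °C, and 14 falls from 0 to 6 h and 2 from 6 to 12 h at 44 °C. The gene lists, 90 genes without the 4 chaperones, had 16 rises and 19 falls over the 6 comparisons, against 7 and 8 as reported. The 44 °C, 0 h array has the highest median.
Quantile normalization alone gave 2 falls at 42 °C, 12 h, 5 rises at 44 °C, 12 h, 6 higher at 44 °C than at 42 °C at 12 h, and from 6 to 12 h 2 rises at 42 °C and 4 at 44 °C, with 16 falls in the lists. The median shift alone gave 3 falls at 42 °C, 12 h, 2 falls at 44 °C, 6 h, 5 rises at 44 °C, 12 h, 1 lower at 44 °C than at 42 °C at 0 h and 5 higher at 12 h. In recovery steps it gave 2 rises from 6 to 12 h at 42 °C, and 2 falls from 0 to 6 h and 5 rises from 6 to 12 h at 44 °C, with 14 falls in the lists.
With no floor there were 2 falls at 44 °C, 6 h, 2 from 0 to 6 h at 44 °C and 22 in the lists. With the floor at 2 times the pooled median, no fall was left in the first of these comparisons (0) or in either step at 44 °C (0 and 0), and the lists had 3 rises. Without probe sets ending in _x_at, 7 rose at 42 °C, 6 h and 1 at 42 °C, 12 h. With the mean of all probe sets of a gene, the lists had 1 rise and 5 falls. No paired analysis was possible because each group has 1 array. Why these counts move was not tested.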

Other observations

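Beside NEAT1, 3 genes had a bright probe set that rose and another that fell at 42 °C, 0 h, and they were named after their values were seen. RSRP1, an arginine and serine rich protein gene, spanned -2.01 to 2.28 log2 units over 2 bright probe sets. ARID1B, a subunit of a chromatin remodelling complex, spanned -2.24 to 1.19 over 4, and N4BP2L2 spanned -1.37 to 1.57 over 3. At 42 °C, 6 h BICD1, a dynein adaptor, was the single such gene, from -1.11 to 1.49 over 4, and at 42 °C, 12 h, 44 °C, 0 h and 44 °C, 6 h there was none. None of these 4 genes was called both ways when both arrays had to be bright. RSRP1 was also among the 5 genes nearest in course to NEAT1 234989_at.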
